A study of Mus musculus with 54 samples.

Results

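The H2 genes on mouse chromosome 17 make up the major histocompatibility complex of the mouse, and their replication timing was followed here at the 50 kb windows they overlap. Members were the genes whose symbol starts with H2- in the complex on chromosome 17 (mm10), from H2-K2 at chr17:33974659-33978791 to H2-M2 at chr17:37480851-37483554. The annotation lists 50 such symbols on the chromosome, of which 46 lie in that interval and 42 overlap a window with values, on 26 different windows. These were 3 genes of the K end, 12 of the class II part, 1 of the D part, 8 of the Q part, 7 of the T part and 11 of the M part. No values were listed for the windows of H2-M10.1, H2-M10.2, H2-M10.4 and H2-M3, so 11 of the 15 annotated M genes were measured. H2-Q8, H2-Q9, H2-D4 and H2-T18 have annotated coordinates outside the interval and were not analysed here. The members are a small share of the 49997 genes annotated, and of the 43941 autosomal windows they hold 26.

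The study profiled replication timing by Repli-Seq, in which newly made DNA is tagged with BrdU in living cells and the tagged DNA of the early and of the late part of S phase is sequenced separately. All lines are F1 hybrids, so that reads carrying a strain's variants give a profile for each parental chromosome. The 54 libraries, 27 early and 27 late, make 27 profiles with 2 alleles each. Embryonic stem cells (ESCs) came from the 129/Cas lines F121 (1 profile in 2i), F121-6 and F121-9 (2 profiles in 2i and 2 on feeders each), F123 (2 in 2i) and the Cas/129 line Cas129 (2 in 2i). The 2i cultures were free of feeders, and feeders were mouse embryonic fibroblasts inactivated with mitomycin C. Day 11 neural precursors (NPCs) were made from Cas129, with 2 profiles, and from F121-9, with 1 profile. Mouse embryonic fibroblasts (MEFs) were Cas/129 and came from 4 embryos with 2 profiles each. The ESC line V6.5 (C57B6/129, 1 profile in 2i) and an extraembryonic endoderm (XEN) line (C57B6/Cas, 2 profiles) are described without a test. F123, V6.5 and embryos 3 and 4 are labelled male and all other lines and embryos female. Profiles of one line or embryo were averaged, so that the tests of cell types and alleles compare 5 ESC lines, 2 NPC lines and 4 MEF embryos. Only the test of feeders against 2i took single profiles. The NPC lines come from ESC lines that are also in the comparison. F121, F121-6, F121-9 and F123 all carry the same cross label, so the 5 ESC lines are not 5 separate crosses. Every stem cell, precursor or XEN line is a single line in culture. Whether profiles of one line came from separate cultures is not stated.

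Each value is the authors' log ratio of early to late reads, so that a positive value marks early replication and a negative value late replication. No source used here gives the base of this logarithm. Timing below is the mean of both alleles, and the allelic difference is the 129 value minus the Cas value (129 minus C57B6 in V6.5, C57B6 minus Cas in XEN). A positive allelic difference therefore means that the first-named chromosome replicated earlier. A window was called where limma gave an adjusted p (Benjamini-Hochberg over all 43941 autosomal windows) under 0.05 together with a size of at least 0.5 for allelic differences and culture, or 1 for timing between cell types. The files hold no read counts, so the depth behind a value is unknown.

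Class I molecules of the complex are single heavy chains that pair with beta-2-microglobulin and show peptides from inside the cell to CD8 T cells and natural killer cells. Classical class I genes (H2-K1, H2-D1) are active in nearly all nucleated cells, while the nonclassical genes of the Q, T and M parts have narrower roles and sites of expression. Class II molecules (H2-Ab1 with H2-Aa, and H2-Eb1) show peptides from outside the cell to CD4 T cells and are made mainly by professional antigen-presenting cells. Stem cells of the embryo are known for low class I levels at their surface. Early replication is in general a feature of gene-rich, open chromatin, and late replication of compact, gene-poor chromatin.

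The upstream sequences below are shown for the classical genes and 2 Q genes, which lie in early windows in every cell type. They are also shown for H2-M10.5 and H2-M10.6, whose windows differed most between NPCs and ESCs among the members. H2-M10.3 is shown as a relative of these with an allelic difference in all 3 cell types, and H2-T3 for its allelic difference in ESCs and MEFs. Each is the 250 bases before the annotated start, 5′ to 3′ along the gene, from RefSeq (GRCm38.p6, the same coordinates as mm10). Capitals mark matches on either strand to GGGGATTCC (the letters of a kappa B site), TTTCACTTC (the letters of an interferon-response element) and CCAAT. H2-K1 has 2 annotated starts and the outer one is shown, at chr17:34000348-34000597 (minus strand). The others lie at chr17:35262844-35263093 (plus strand) for H2-D1, chr17:35379367-35379616 (plus strand) for H2-Q4, chr17:35438905-35439154 (plus strand) for H2-Q7, chr17:36190152-36190401 (minus strand) for H2-T3, chr17:36368418-36368667 (minus strand) for H2-M10.3, chr17:36772660-36772909 (plus strand) for H2-M10.5 and chr17:36811925-36812174 (plus strand) for H2-M10.6.
H2-K1: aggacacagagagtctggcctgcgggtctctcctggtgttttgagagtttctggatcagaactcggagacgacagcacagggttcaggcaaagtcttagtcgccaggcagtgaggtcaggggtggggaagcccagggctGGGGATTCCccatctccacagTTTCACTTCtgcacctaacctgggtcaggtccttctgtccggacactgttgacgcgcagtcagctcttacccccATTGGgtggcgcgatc
H2-D1: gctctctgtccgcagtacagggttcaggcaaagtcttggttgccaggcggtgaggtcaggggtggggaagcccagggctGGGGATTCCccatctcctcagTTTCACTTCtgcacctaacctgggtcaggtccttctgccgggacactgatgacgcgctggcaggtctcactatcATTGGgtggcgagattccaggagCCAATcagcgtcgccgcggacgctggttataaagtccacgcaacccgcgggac
H2-Q4: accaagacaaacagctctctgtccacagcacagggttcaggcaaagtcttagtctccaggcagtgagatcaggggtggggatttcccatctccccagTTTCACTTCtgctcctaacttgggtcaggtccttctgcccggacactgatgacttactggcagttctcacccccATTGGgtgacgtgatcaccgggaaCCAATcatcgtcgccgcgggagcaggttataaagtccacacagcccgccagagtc
H2-Q7: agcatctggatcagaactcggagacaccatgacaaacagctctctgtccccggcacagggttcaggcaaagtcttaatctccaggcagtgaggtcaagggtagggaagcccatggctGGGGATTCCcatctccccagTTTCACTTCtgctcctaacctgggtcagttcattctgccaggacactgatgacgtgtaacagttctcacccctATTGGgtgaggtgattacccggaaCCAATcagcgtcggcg
H2-T3: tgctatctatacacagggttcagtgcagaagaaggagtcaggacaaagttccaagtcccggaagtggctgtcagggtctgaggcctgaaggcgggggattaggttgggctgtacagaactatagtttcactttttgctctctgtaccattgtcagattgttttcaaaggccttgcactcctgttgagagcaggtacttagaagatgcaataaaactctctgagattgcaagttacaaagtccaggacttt
H2-M10.3: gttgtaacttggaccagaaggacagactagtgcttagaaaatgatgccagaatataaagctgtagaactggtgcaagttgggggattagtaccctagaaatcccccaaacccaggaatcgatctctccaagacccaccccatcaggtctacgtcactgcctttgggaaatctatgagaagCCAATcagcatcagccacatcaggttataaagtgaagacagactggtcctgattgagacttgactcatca
H2-M10.5: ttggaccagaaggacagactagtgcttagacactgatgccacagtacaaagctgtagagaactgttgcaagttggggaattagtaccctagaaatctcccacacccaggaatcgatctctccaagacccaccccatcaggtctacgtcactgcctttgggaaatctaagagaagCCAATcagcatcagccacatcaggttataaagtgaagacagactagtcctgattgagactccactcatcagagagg
H2-M10.6: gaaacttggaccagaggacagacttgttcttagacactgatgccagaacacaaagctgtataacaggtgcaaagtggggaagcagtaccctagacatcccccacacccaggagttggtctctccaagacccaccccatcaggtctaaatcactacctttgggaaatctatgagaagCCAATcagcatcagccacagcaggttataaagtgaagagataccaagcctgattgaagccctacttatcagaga

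Promoter sequences were found for 32 of the 46 genes. GGGGATTCC stood in 4 of the 32, H2-K1, H2-D1, H2-Q6 and H2-Q7, against 0.213% of all 32851 annotated promoters. TTTCACTTC stood in 7 of the 32, H2-K1, H2-D1, H2-Q4, H2-Q6, H2-Q7, H2-Q10 and H2-M3, against 0.402% of all promoters. CCAAT, a common promoter letter run, stood in 29 of the 32 and in 33.8% of all promoters. None of the 8 class II promoters and none of the 4 T promoters held either of the first 2 motifs in these windows. Not every Q promoter held them: H2-Q2 held neither, and H2-Q4 and H2-Q10 lacked GGGGATTCC. The class II and T parts replicated early in every cell type too, and a link between motifs and timing was not tested. The M10 genes resembled each other: in a global alignment 91.6% of the 250 bases of H2-M10.3 were identical in H2-M10.5 and 84.4% in H2-M10.6. H2-D1 and H2-Q4 shared 80.8% of theirs, while H2-M10.3 and H2-Q4 shared 54.8%. These matches describe letters of the C57BL/6 reference and were not read from the hybrid cells.

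A few features of the whole data set bear on the values. The autosomal mean of each profile column was between -0.67 and -0.54 in ESCs and NPCs and between -0.22 and -0.10 in MEFs and XEN cells, so timing of MEFs against ESCs or NPCs crosses that step, and the median window was 0.38 higher in MEFs than in ESCs and 0.35 higher than in NPCs. NPCs and ESCs differed by a median of 0.03. Neighbouring windows had almost the same values (r from 0.98 to 1.00 for columns and from 0.85 to 0.95 for allelic differences, a description over windows), so adjacent members are not independent measurements. In the H2 interval 55 of 71 windows were listed (22.5% missing, against 13.1% on the whole chromosome). In MEFs labelled female the 129 X chromosome of embryo 1 was flat (SD 0.23) while that of embryo 2 was not (1.29), and in those labelled male embryo 3 had a varying 129 X track (1.30) while embryo 4 had a flat one (0.19). The tracks of embryos 1 and 3 thus go against their sex labels, and results are given without them where that changes a call. Each marker list was earliest in its own cell type: the median timing of 6 stem cell markers was 2.26 in ESCs, 0.82 in NPCs and -0.56 in MEFs, that of 6 fibroblast markers was 3.002 in MEFs, 2.38 in NPCs and 1.05 in ESCs, and that of 6 neural markers was 1.29 in NPCs, 0.51 in ESCs and 0.005 in MEFs. In XEN cells the 5 measured endoderm markers had a median of 2.44, against 0.27 in ESCs, 0.53 in NPCs and 2.02 in MEFs. Fibroblast markers were thus early in NPCs too, and endoderm markers in MEFs too.

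From the K end to the T part the H2 genes replicated early in every cell type, and only the M part lay near or below 0 in some. The mean timing over the 5 ESC lines was 2.78 ± 0.55 (SD, n = 5 lines) for the K part, 2.32 ± 0.25 for class II, 2.58 ± 0.20 for D, 2.28 ± 0.19 for Q and 2.18 ± 0.39 for T. In the 4 MEF embryos the same parts stood at 3.12 ± 0.10, 2.21 ± 0.08, 2.50 ± 0.28, 2.23 ± 0.03 and 2.17 ± 0.20 (SD, n = 4 embryos). The 2 NPC lines gave 3.06 and 3.11 for K, 2.34 and 2.51 for class II, 2.19 and 2.42 for D, 1.77 and 2.30 for Q and 1.95 and 1.98 for T. XEN cells were at 3.20, 2.54, 2.63, 2.54 and 2.83 for these parts in turn, and V6.5 at 3.41, 2.26, 3.03, 2.78 and 2.60. In ESCs the K windows were earlier than 94.0% and 96.4% of autosomal windows, and the windows of the Q part were earlier than 82.5% to 84.9%. Apart from the M part, none of the 17 windows was called between any of ESCs, NPCs and MEFs on the deposited scale. For MEFs this depends on the scale. With each profile centred on its median, all 17 were lower in MEFs than in ESCs. The differences ran from -0.26 at H2-K2 with H2-K1 to -1.08 at H2-Eb1, and only the latter was called. With quantile normalization they ran from -0.88 at H2-Eb1 to 0.02 at H2-Q10, and none was called.

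**Figure D1:**
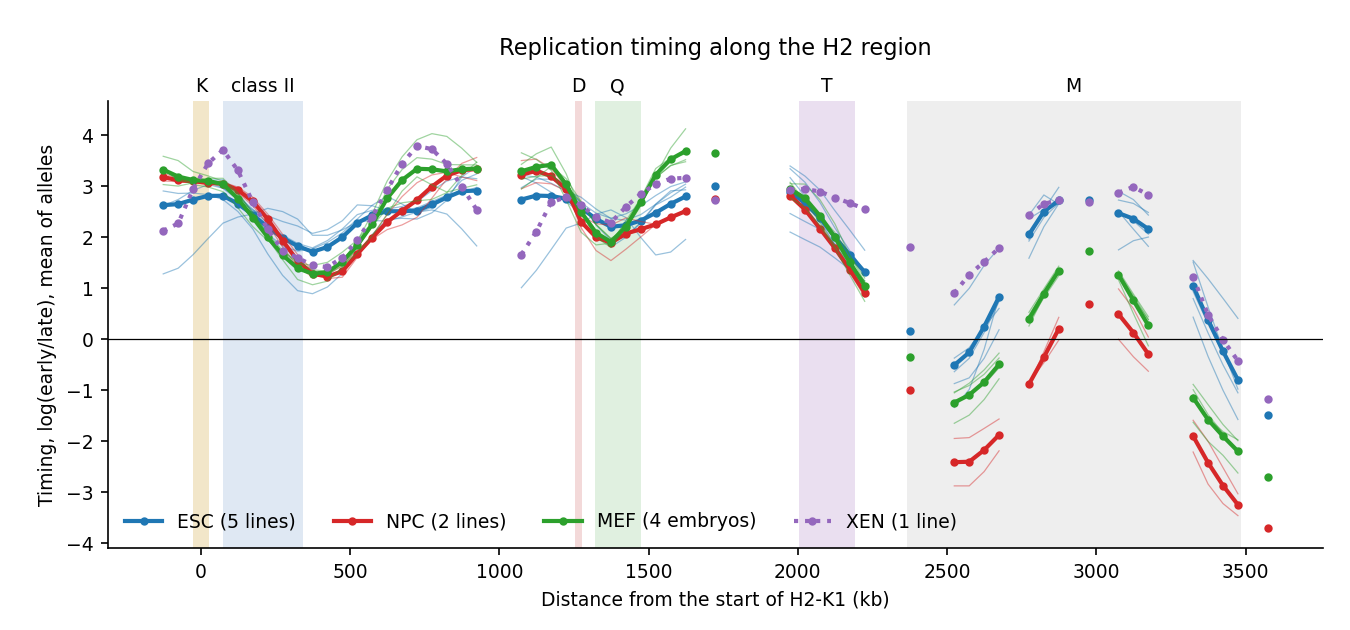
Timing (log ratio of early to late, mean of both alleles) against distance from the start of H2-K1 in kb. Thick lines are means of each cell type, thin lines are single lines or embryos, shaded bands mark the parts, and gaps are windows without values. On the deposited scale the cell types run close together up to the T part and separate in the M part. There NPCs are lowest and XEN cells highest in most windows.

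H2-K1, a classical class I gene, lies on 2 windows with H2-K2, a pseudogene, and H2-Ke6, which encodes a steroid dehydrogenase and no antigen-presenting molecule. Its first window stood at 2.92 in F121, 1.66 in F121-6, 3.12 in F121-9, 2.87 in F123 and 3.14 in Cas129, at 3.13 and 3.08 in NPCs from F121-9 and Cas129, and at 3.07, 3.04, 3.29 and 3.10 in MEF embryos 1 to 4. F121-6 was the low sample, by more than 1 unit below the next, and all others lay close together. Timing then declined through the class II part, except in F121-6, which rose from 2.28 at H2-Oa to 2.57 at H2-Ob. H2-Oa, a chain of the modulator of peptide exchange, shared a window at 2.82 in ESCs, earlier than 96.4% of windows, and H2-DMa, a chain of the peptide exchange factor itself, one at 2.66. For H2-Ab1 and H2-Aa, the chains of one class II molecule, the window was at 1.99 in ESCs, 1.94 in NPCs and 1.66 in MEFs. The window of H2-Eb1, H2-Eb2 and H2-Ea was the latest of the class II part in every line and embryo but F121-6. It stood at 1.88 in F121, 2.36 in F121-6, 1.73 in F121-9, 0.96 in F123 and 2.22 in Cas129, against 1.52, 1.50, 1.39 and 1.17 in the 4 MEF embryos. The ranges of ESC lines and embryos overlapped there, and the difference of -0.43 ± 0.23 (SE) was not called (limma, adjusted p = 0.106), although it was after each profile was centred on its median (-1.08, adjusted p = 0.000282).

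H2-D1, the other classical class I gene, stood between 2.28 and 2.79 in ESC lines, at 2.42 and 2.19 in NPCs and between 2.10 and 2.70 in MEF embryos, and these ranges overlapped. Among the Q genes, H2-Q4 (with H2-Q3 and H2-Q5 on its window) had the lowest mean in MEFs at 1.91, against 2.21 in ESCs. H2-Q7, which encodes a class I molecule held in the membrane by a lipid anchor, shared a window with H2-Q6 at 2.24 in ESCs and 2.21 in MEFs. H2-Q10, known for its secreted product from liver, was at 2.29, 2.00, 2.62, 2.30 and 2.45 in ESC lines F121, F121-6, F121-9, F123 and then Cas129 and at 2.64, 2.62, 2.77 and 2.76 in MEF embryos 1 to 4. All embryos lay at or above the highest ESC line there, but the difference of 0.37 ± 0.16 (SE) was smaller than the minimum size (limma, adjusted p = 0.0445). It was about as large as the 0.38 shift of the median window, and became -0.27 with each profile centred on its median and 0.02 with quantile normalization. In the T part, timing fell towards the M genes: in ESCs the window of H2-T23 and H2-T22 was at 2.67 and that of H2-T3 at 1.66. H2-T23 encodes a ligand of natural killer cell receptors, H2-T22 a ligand of gamma delta T cells, and H2-T3 the thymus leukaemia antigen found on intestinal epithelium.

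The M genes replicated later in NPCs than in ESCs. In MEFs all 9 M windows were also lower than in ESCs, and 5 of them were called. All 9 M windows, with all 11 measured M genes, were called lower in NPCs against ESCs, and no other H2 window was called; 32.5% of all autosomal windows were called in that comparison and 16.1% were called lower. Over the 9 windows the mean was 0.77 in F121, 0.51 in F121-6, 0.70 in F121-9, 0.37 in F123 and 1.54 in Cas129. It was -1.33 in F121-9 NPCs and -1.70 in Cas129 NPCs. MEF embryos 1 to 4 stood between these, at -0.39, -0.22, -0.18 and -0.62. On the deposited scale no line of one cell type overlapped another cell type in this mean. ESC lines were all above 0 and NPC lines and embryos all below. The place of the embryos depends on the step between the column sets. With each profile centred on its median, MEFs minus NPCs ran from 0.02 at H2-M10.3 to 0.75 at H2-M1, and no M window was called. The share of all windows that separate in this way was not taken. XEN cells were at 1.63 and V6.5 at 0.31.

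**Figure D2:**
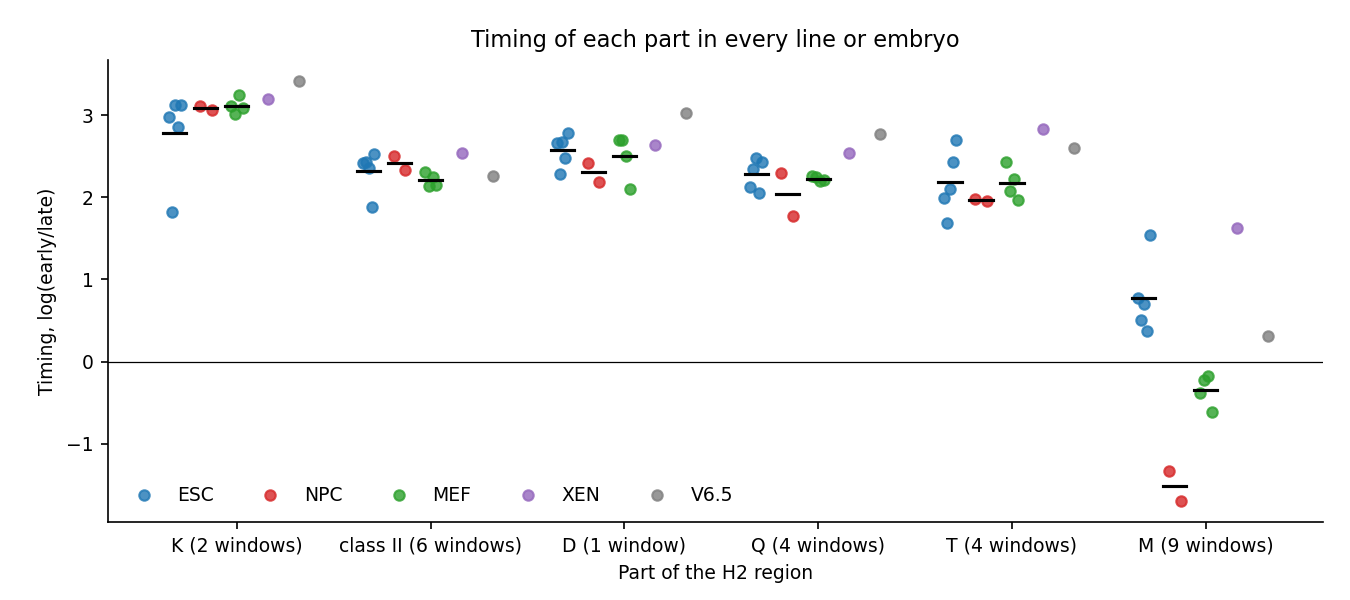
Mean timing (log ratio of early to late) of each part of the H2 region, 1 point per line or embryo, with the number of windows averaged. Bars are means of the 5 ESC lines, 2 NPC lines and 4 MEF embryos, while XEN and V6.5 are 1 point each. On the deposited scale the M part separates ESCs (0.37 to 1.54), MEFs (-0.62 to -0.18) and NPCs (-1.70 and -1.33). MEFs and XEN cells lie across the step between the column sets. F121-6 is the low point of the K part.

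Among the members, the NPC windows of H2-M10.5 and H2-M10.6 differed most from ESCs. The M10 family is known for expression in sensory neurons of the vomeronasal organ. For H2-M10.5 the window stood at 1.97 in F121, 2.44 in F121-6, 1.93 in F121-9, 1.59 in F123 and 2.37 in Cas129. In NPCs it was at -0.84 (F121-9) and -0.91 (Cas129), and in MEF embryos 1 to 4 at 0.33, 0.47, 0.53 and 0.26. The 3 cell types did not overlap on the deposited scale, where MEFs lie across the step between the column sets. NPCs were lower than ESCs by a difference of -2.94 ± 0.22 (SE) (limma, adjusted p = 4.25e-08) in both lines, and MEFs lower by one of -1.66 ± 0.18 (limma, adjusted p = 4.44e-07) in 4 of 4 embryos.

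H2-M10.6 behaved alike, with a difference of -2.86 ± 0.19 (SE) in NPCs (limma, adjusted p = 1.37e-08) and -1.61 ± 0.15 in MEFs (limma, adjusted p = 1.17e-07). Its ESC lines lay between 2.21 and 2.83, its NPC lines at -0.46 and -0.24, and its embryos between 0.82 and 0.99. H2-M1 and H2-M9, also vomeronasal class I genes, differed by -2.71 ± 0.32 and -2.42 ± 0.38 (SE) in NPCs against ESCs (limma, adjusted p = 3.95e-06 and 5.69e-05). In MEFs against ESCs they differed by -1.32 ± 0.26 and -1.09 ± 0.30 (limma, adjusted p = 0.000258 and 0.00437). H2-M9 fell below the minimum size without Cas129 (-0.79), without embryo 4 (-0.97) and with 2i profiles only (-0.90). Of the ESC lines Cas129 was the highest in both windows, at 1.80 and 1.45, with the others between 0.19 and 0.83 for H2-M1 and between -0.37 and 0.24 for H2-M9.

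H2-M2, at the far end, was the latest member: -1.05, -0.97, -0.79, -1.57 and 0.41 in F121, F121-6, F121-9, F123 and then Cas129, -3.03 and -3.45 in the NPC lines, and -2.20, -1.99, -1.97 and -2.62 in the embryos. It differed from ESCs by -2.45 ± 0.37 (SE) in NPCs (limma, adjusted p = 4.60e-05) and -1.40 ± 0.30 in MEFs (limma, adjusted p = 0.000572). H2-M5, with 2 pseudogenes on its window, was early in ESCs (2.11 to 2.98), at 0.27 and 1.10 in NPCs and from 1.67 to 1.83 in MEFs. Its difference of -2.05 ± 0.26 in NPCs was called (limma, adjusted p = 6.33e-06), and that of -0.998 ± 0.21 in MEFs lay just under the minimum size (limma, adjusted p = 0.000413). H2-M11 spans 2 windows that differed by -1.90 and -2.14 in NPCs. The window of H2-M10.3 differed least, by -1.17 ± 0.27 in NPCs (limma, adjusted p = 0.00172), and fell below the minimum size without the Cas129 NPCs (-0.91).

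Against ESCs, 5 M windows were called lower in MEFs (H2-M9, H2-M1, H2-M10.5, H2-M10.6 and H2-M2), and no other H2 window was called; 44% of all windows were called, and 13.7% were called lower. This comparison crosses the step between the column sets. With each profile centred on its median, all 9 M windows were called lower, H2-M10.5 by -2.30, together with the window of H2-Eb1. MEFs were higher than NPCs in all 9 M windows, and 8 of them were called, by 1.05 to 1.38. Of all windows, 33.3% were called and 25.7% were called higher. This comparison crosses the same step, and those 8 calls ended with median centring (H2-M10.5 then 0.64, H2-M1 0.75 and H2-M2 0.41) and with quantile normalization, and the direction stayed the same. Without the Cas129 NPCs 3 of the windows were called, without embryos 1 and 3 there were 4, and the lowest estimates without 1 line or embryo were 0.64 for H2-M5 (without the F121-9 NPCs), 0.70 for H2-M11 and 0.83 for H2-M2. The comparisons of NPCs and of MEFs with ESCs share the same 5 ESC lines.

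Other genes lying among the H2 genes take the values of the windows they overlap, so genes on the same windows are not separate measurements. Ppp1r11 and Znrd1 had the values of the H2-M5 window, and Trim10 and Trim31 had the same values as each other. Of 32 such genes listed, 24 were measured. Among these, 7 were called lower in NPCs than in ESCs, 5 lower in MEFs than in ESCs, and 5 higher in MEFs than in NPCs. These counts are of genes and repeat shared windows, while the shares called in these directions, 16.1%, 13.7% and 25.7%, are of all windows. The 7 lay in the M part: Trim26, Trim10 and Trim31 (tripartite motif proteins), Ppp1r11, Znrd1, Gabbr1 (a GABA receptor subunit) and Ubd (a ubiquitin-like modifier), with differences from -1.98 for Gabbr1 to -2.69 for Trim26 in NPCs (limma, adjusted p = 2.91e-05 and 3.45e-08). The medians over the 24 genes were -0.08 in NPCs and 0.19 in MEFs against ESCs, beside 0.03 and 0.38 over all windows. Of 26 genes of antigen processing and its control, most of them on other chromosomes, 25 were measured. Of these, 1 was called lower in NPCs than in ESCs, and in MEFs 1 was called lower and 4 higher, where 44% of all windows were called in either direction. Erap1, which trims peptides for class I molecules, was called lower in NPCs (-3.66) and in MEFs (-2.92) than in ESCs (limma, adjusted p = 2.75e-09 and 5.30e-10). Among the 4 called higher in MEFs, a comparison in which the median window was already 0.38 higher, were Irf2 by 2.76, Nlrc5, a transactivator of class I genes, by 1.73 and Rfxap by 1.12, and none was called higher in NPCs over all its windows. Their median timing was 2.51 in ESCs, 2.70 in NPCs and 3.06 in MEFs.

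Culture on feeders went with earlier timing of 3 M windows in F121-6 and F121-9, the lines grown both ways. In limma with line as a term, 3 of 26 windows were called, all higher on feeders, against 12.8% of all windows called and 4.92% called higher. The unit of this fit was the single profile and not the line mean. Its SE and p therefore measure the spread between profiles of these lines, which share a cross and whose profiles may not be separate cultures. For H2-M2 the 2i profiles stood at -1.42 and -1.38 (F121-6) and -1.32 and -1.37 (F121-9), and the feeder profiles at -0.45, -0.64, -0.22 and -0.25. Feeder and 2i profiles did not overlap, and the difference was 0.98 ± 0.19 (SE; limma, adjusted p = 0.00601). H2-M9 was at -0.58, -0.45, -0.46 and -0.55 in 2i and at -0.22, 0.48, 0.40 and 1.15 on feeders, a difference of 0.96 ± 0.25 (limma, adjusted p = 0.0241). H2-M1 differed by 0.87 ± 0.26 (limma, adjusted p = 0.0446), with 2i profiles from 0.05 to 0.70 and feeder profiles from 0.76 to 1.79. Feeders are themselves fibroblasts. The 6 fibroblast markers differed by a median of -0.01 between feeder and 2i cultures, and the part of feeder cells in the M windows was not tested. No H2 window was called for the allelic difference between feeders and 2i in limma, 1 had an unadjusted p under 0.05, and 0% of all windows were called.

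Between the alleles, the 129 chromosome was earlier at the Q genes and later at H2-T3 and H2-M10.3. Allelic differences of neighbouring windows are alike in general (r from 0.85 to 0.95), so runs of adjacent windows with 1 sign are not a trait of the H2 genes. In ESCs 7 of 26 windows with 13 genes were called, 3 with 129 earlier and 4 with 129 later; 25.2% of all windows were called, 13.2% with 129 earlier and 11.9% with 129 later. In MEFs 8 windows with 14 genes were called, 5 with 129 earlier and 3 later, against 12.9% of all windows (5.5% and 7.36%). In NPCs 3 windows with 7 genes were called, 2 with 129 earlier and 1 later, against 4.71% (2.47% and 2.24%). The median size of the difference over the 26 windows was 0.26 in ESCs, 0.33 in MEFs and 0.38 in NPCs, beside 0.26, 0.20 and 0.21 over all windows. ESCs and MEFs shared 6 called windows, 85.7% of those of ESCs and 75% of those of MEFs. In all 3 cell types 3 windows were called: H2-Q1 with H2-Q2, H2-Q3 to H2-Q5, and H2-M10.3 with H2-M10.5-ps1. The same overlaps over all autosomal windows were not taken, so whether these are large for the genome is not known. The NPC lines also come from ESC lines in the comparison. In 10 of the 26 windows all 11 lines and embryos had the same sign, as in 8.37% of all autosomal windows. All but F123 and 2 embryos are labelled female, and both orders of the cross are present in ESCs and NPCs and only Cas/129 in MEFs.

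**Figure D3:**
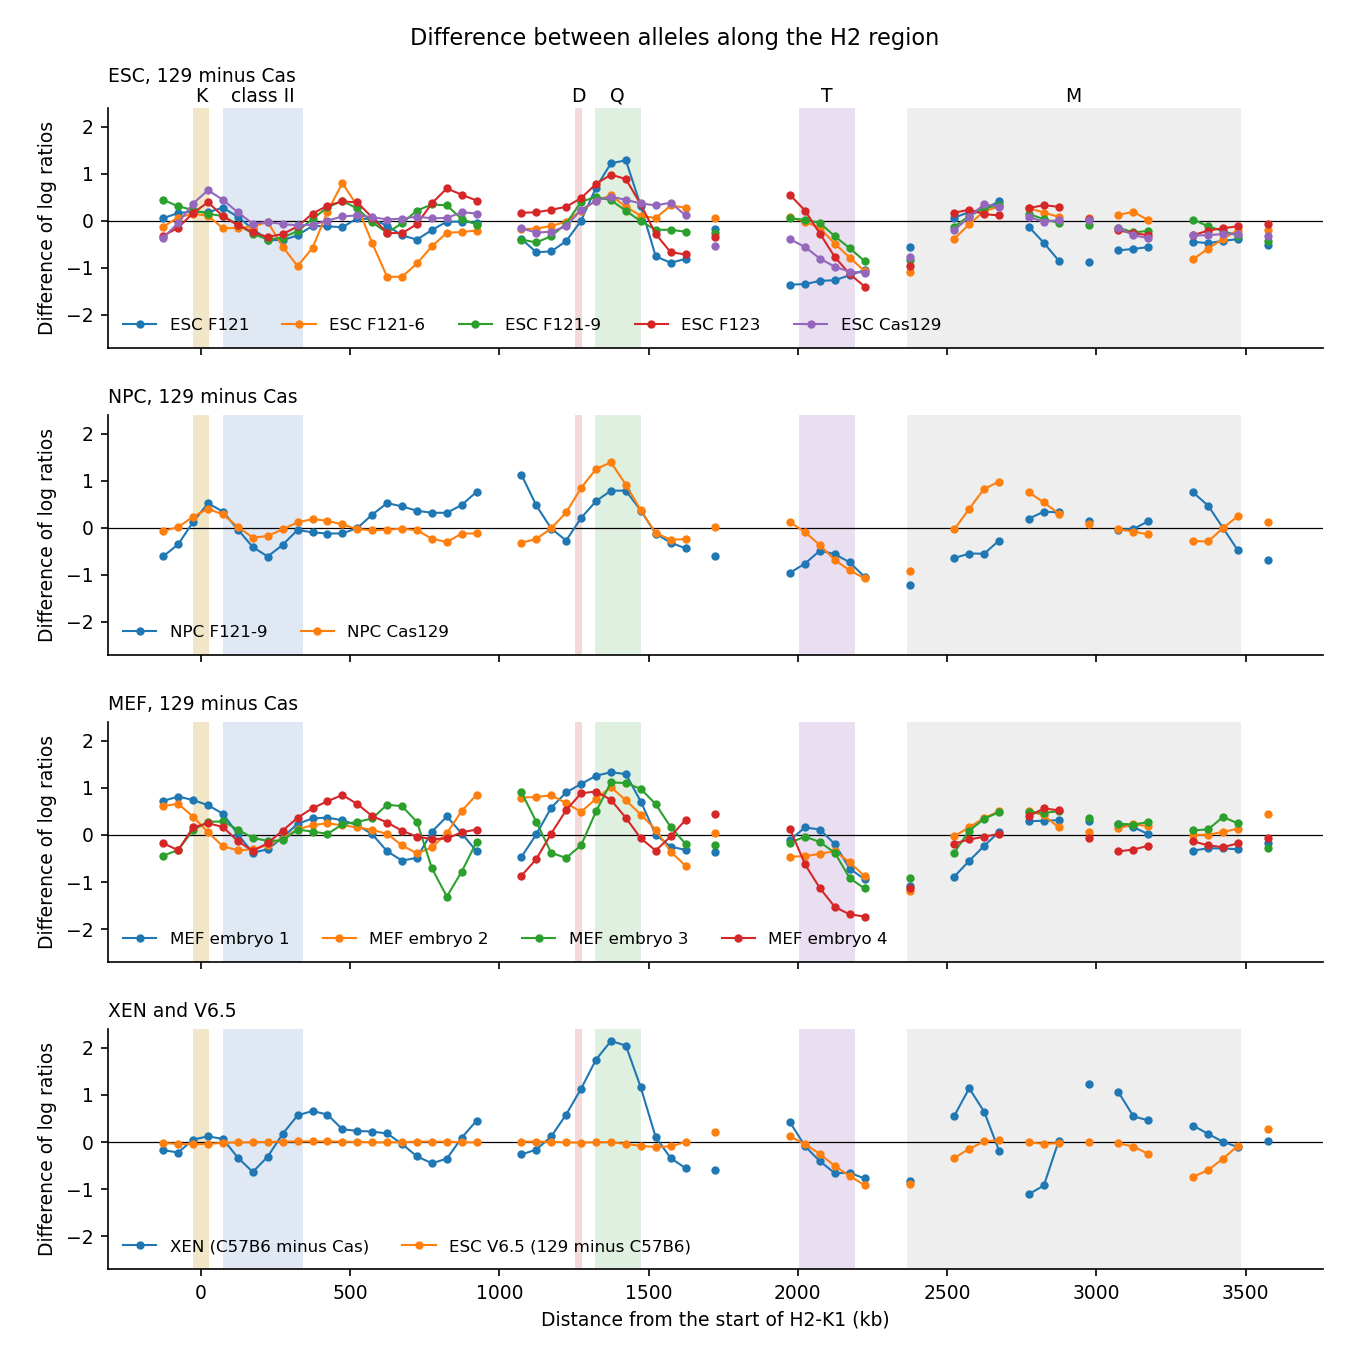
Allelic difference (difference of log ratios) against distance from the start of H2-K1 in kb, 1 line per cell line or embryo. Panels give 129 minus Cas in ESCs, NPCs and MEFs, and C57B6 minus Cas in XEN with 129 minus C57B6 in V6.5 below; shaded bands mark the parts. The Q band is above 0 in nearly all 129/Cas lines and in XEN, and the end of the T band and the first M window are below 0 in every line.

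At the K end and in class II the differences were small. The window of H2-K1 and H2-Ke6 gave 0.18, 0.11, 0.15, 0.40 and 0.65 in F121, F121-6, F121-9, F123 and then Cas129, with 129 earlier in all 5; the mean of 0.30 ± 0.11 (SE) had an adjusted p of 0.0373 (limma) and was below the minimum size. In MEFs it was 0.63, 0.06, 0.28 and 0.25 in embryos 1 to 4. H2-Ab1 and H2-Aa leaned the other way in ESCs, with -0.41, -0.55, -0.35, -0.28 and -0.07 in the same order of lines, a mean of -0.33 ± 0.09 (limma, adjusted p = 0.0104), again under the minimum size. At H2-Eb1, H2-Eb2 and H2-Ea the ESC lines were at -0.31, -0.96, -0.22, -0.12 and -0.10 and the embryos at 0.24, 0.12, 0.12 and 0.37. These means of ESC lines and embryos had opposite signs and did not overlap. Single profiles did overlap: of all 24, NPCs included, 12 were above 0 and 12 below. F121-6 gave -1.80 and -0.09 in 2i and -2.11 and 0.16 on feeders, F121-9 on feeders -0.52 and 0.33, and embryo 3 -0.08 and 0.31. The difference of 0.55 ± 0.18 (SE) was the single H2 window called for MEFs against ESCs (limma, adjusted p = 0.0315), against 27.4% of all windows called and 12.3% called higher. That call ended without F121-6 (0.39), without any one embryo (0.50 to 0.58), with quantile normalization (0.53) and with line as a random block over profiles (0.62).

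H2-D1 gave 0.00, 0.22, 0.41, 0.48 and 0.24 in the ESC lines F121, F121-6, F121-9, F123 and then Cas129, which was not called. The MEF embryos stood at 1.08, 0.49, -0.22 and 0.89, and their mean of 0.56 ± 0.18 (SE) was called (limma, adjusted p = 0.0405) with 3 of 4 embryos in its direction. The call ended without embryo 1 (0.39), embryo 2 (0.58), embryo 4 (0.45) or embryos 1 and 3 together (0.69). It also ended without the ESC lines F121-9 or Cas129 and with 2i profiles only, where the value stayed at 0.56 and the adjusted p rose to between 0.0512 and 0.0703.

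The windows called with 129 earlier were those of Q genes and, in MEFs, that of H2-D1 as well. At H2-Q3, H2-Q4 and H2-Q5 the difference was 1.23 in F121, 0.54 in F121-6, 0.44 in F121-9, 0.98 in F123 and 0.52 in Cas129, then 0.79 and 1.40 in the NPCs from F121-9 and Cas129, and 1.33, 1.02, 1.12 and 0.75 in MEF embryos 1 to 4. All 11 were above 0. The means were 0.74 ± 0.13 (SE) in ESCs (limma, adjusted p = 0.000556), 1.09 ± 0.21 in NPCs (limma, adjusted p = 0.0132) and 1.05 ± 0.15 in MEFs (limma, adjusted p = 0.000325). Single profiles scattered more than these means: F121-9 in 2i gave 0.18 and -0.01 and on feeders 0.75 and 0.84, and the profiles of embryo 4 gave 1.72 and -0.23. H2-Q1 and H2-Q2 followed with 0.57 ± 0.12 in ESCs, 0.91 ± 0.19 in NPCs and 0.86 ± 0.14 in MEFs (limma, adjusted p = 0.00203, 0.0204 and 0.000708). The NPC calls at these windows ended without the Cas129 NPCs, which leaves 1 line (0.79 and 0.57).

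H2-Q6 and H2-Q7 gave 1.29, 0.30, 0.21, 0.89 and 0.45 in the ESC lines in the same order and 1.29, 0.74, 1.10 and 0.36 in the embryos. The ESC mean of 0.63 ± 0.16 (SE; limma, adjusted p = 0.00633) fell below the minimum size without F121 (0.46), with line as a random block over profiles (0.48) and with the replicate number as a block (0.45). The MEF mean of 0.87 ± 0.18 (limma, adjusted p = 0.0037) was 0.55 without embryos 1 and 3 and then no longer called. H2-Q10 was called in MEFs (0.51 ± 0.14; limma, adjusted p = 0.0208) and not in ESCs (0.23 ± 0.13), and the difference between them was not called. The embryos stood at 0.71, 0.43, 0.98 and -0.07, and the call ended without embryo 1 (0.45), embryo 2 (0.54), embryo 3 (0.36) or embryos 1 and 3 (0.18), with quantile normalization (0.48) and with 2i profiles only (0.51).

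In the T part the 129 chromosome was later. H2-T3 gave -1.15, -0.78, -0.58, -1.13 and -1.08 in F121, F121-6, F121-9, F123 and then Cas129, -0.73 and -0.90 in the NPC lines, and -0.72, -0.58, -0.92 and -1.69 in embryos 1 to 4. All 11 were below 0, with means of -0.95 ± 0.14 (SE) in ESCs and -0.98 ± 0.16 in MEFs (limma, adjusted p = 0.000136 and 0.000858) and -0.82 ± 0.23 in NPCs, where it was not called (adjusted p = 0.0585). H2-T10, with H2-T-ps on its window, gave -0.76 ± 0.18 in ESCs (limma, adjusted p = 0.00334) and -0.61 ± 0.20 in MEFs (limma, adjusted p = 0.0422). The embryos were at -0.20, -0.35, -0.38 and -1.53, embryo 4 being far below the others, and without it the mean was -0.31 and not called; without embryo 2, embryo 3 or embryos 1 and 3 it was -0.70, -0.69 and -0.94 and not called either. Leaving out F123, Cas129 or either NPC line kept it at -0.61 with an adjusted p between 0.0506 and 0.051. H2-Bl was called in ESCs at -0.51 ± 0.19 (limma, adjusted p = 0.0432), with F121 at -1.28 and the other lines between -0.80 and -0.04. It was -0.32 and not called without F121, and the call also ended without F123 (-0.57) or Cas129 (-0.44), and, at -0.51, without either NPC line, embryo 2 or embryo 3. The window of H2-T24, H2-T23 and H2-T22 was not called in any cell type: F121 stood at -1.35, and the other ESC lines between -0.56 and 0.22.

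H2-M10.3 had an allelic difference of one sign throughout. It was -0.55 in F121, -1.08 in F121-6, -0.82 in F121-9, -0.96 in F123 and -0.77 in Cas129, -1.20 and -0.93 in NPCs from F121-9 and Cas129, and -1.08, -1.19, -0.92 and -1.14 in embryos 1 to 4. The 129 allele was later in all 24 profiles of these lines, and this was the 1 window of the 26 with a single sign in all profiles. The share of all autosomal windows with a single sign in all 24 profiles was not taken. Repeat profiles of a line or embryo are not independent. The means were -0.84 ± 0.10 (SE) in ESCs, -1.06 ± 0.15 in NPCs and -1.08 ± 0.11 in MEFs (limma, adjusted p = 1.14e-05, 0.003 and 2.61e-05). In F121-9 NPCs, for instance, the 129 allele was at -1.34 and the Cas allele at -0.14, and in MEF embryo 1 they were at -0.78 and 0.20 in one profile and at -0.93 and 0.24 in the other. The NPC call ended without the F121-9 NPCs (-0.93). At H2-M10.5, further along the chromosome, the difference was 0.13 ± 0.10 in ESCs, 0.48 ± 0.16 in NPCs and 0.42 ± 0.11 in MEFs and not called.

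**Figure D4:**
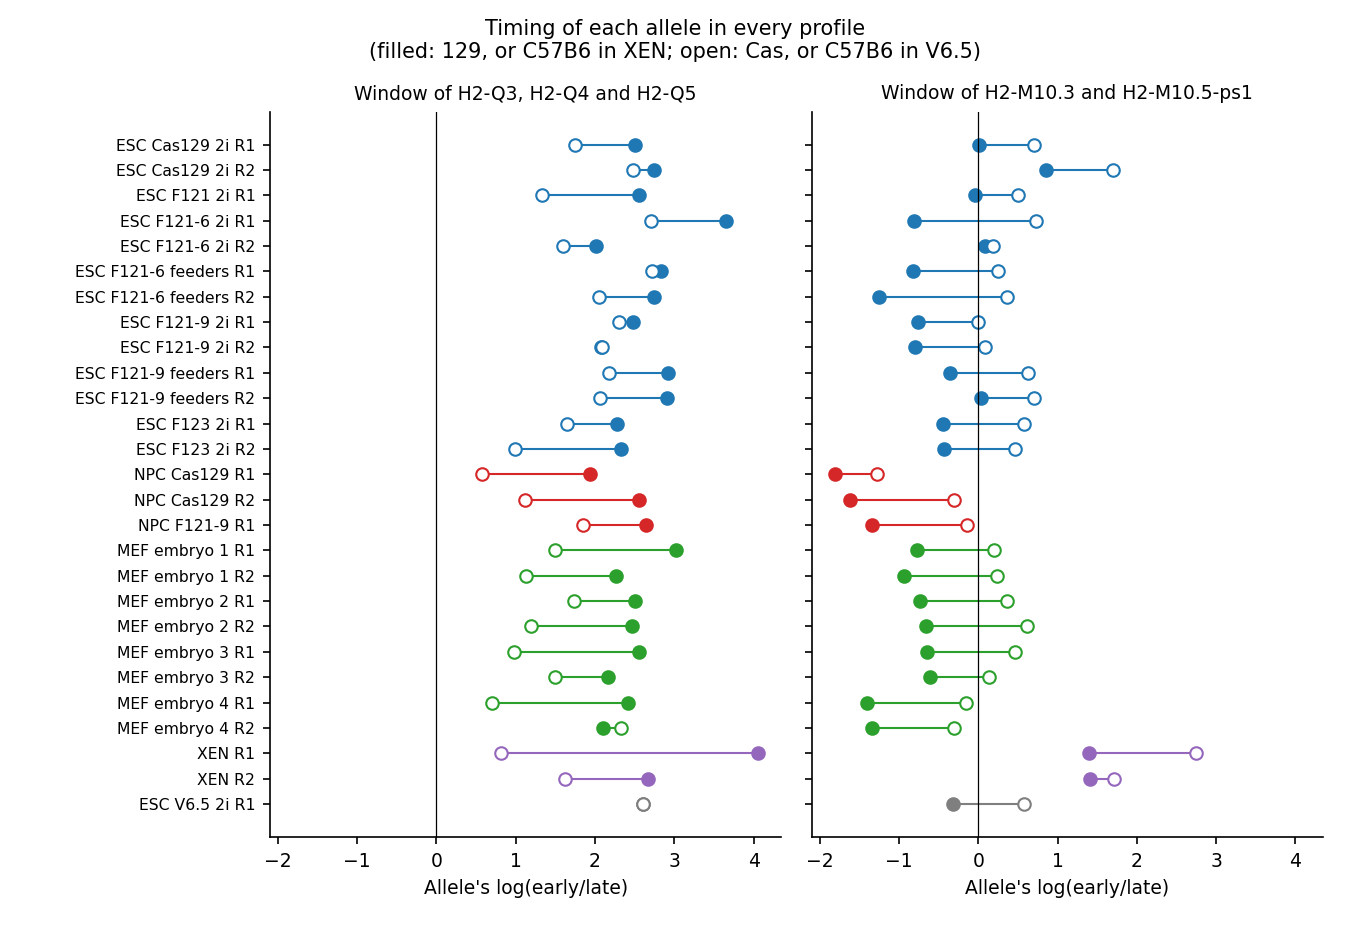
Timing (log ratio of early to late) of each allele in every profile, at the window of H2-Q3 to H2-Q5 and at that of H2-M10.3 with H2-M10.5-ps1. Filled points are 129 (C57B6 in XEN), open points Cas (C57B6 in V6.5), and a line joins the alleles of a profile. At H2-M10.3 the filled point is the later one in every profile, and at the Q window it is the earlier one in most, with no gap in V6.5.

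The remaining M windows were not called for an allelic difference in ESCs, MEFs or NPCs. H2-M10.6 was at 0.44 ± 0.12 (SE) in MEFs with all 4 embryos above 0 (0.30, 0.41, 0.47 and 0.56), under the minimum size (limma, adjusted p = 0.0202). The NPC lines went apart at H2-M1 and H2-M9, with -0.27 and -0.55 in F121-9 and 0.98 and 0.83 in Cas129. H2-M2 was at -0.26 ± 0.11 in ESCs and -0.03 ± 0.13 in MEFs, and H2-M5 at -0.17 ± 0.13 and 0.16 ± 0.15. For NPCs against ESCs no H2 window was called for a change of the allelic difference in limma, 0 had an unadjusted p under 0.05, and 16.1% of all windows were called.

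The hybrids with a C57B6 chromosome give further values without a test. In V6.5 (129 minus C57B6) the difference was near 0 at the Q genes, with -0.04 at H2-Q6 and H2-Q7 and -0.08 at H2-Q10. It was -0.51 at H2-T10, -0.73 at H2-T3 and -0.89 at H2-M10.3. The alleles of V6.5 lay within 0.05 of each other in 18 of the 26 H2 windows and in 60.8% of all autosomal windows, against 0 to 5 H2 windows and 4.46% to 13.6% in the other profiles. In XEN (C57B6 minus Cas) the Q windows stood at 1.75, 2.15 and 2.05, H2-Q10 at 1.16 and H2-D1 at 1.13, while H2-T3 was at -0.65 and H2-M10.3 at -0.83. XEN profiles differed from each other, with 3.24 and 1.05 at H2-Q3 to H2-Q5 and -1.35 and -0.31 at H2-M10.3. XEN also had the windows farthest from the 129/Cas lines in the M part, at -1.11 for H2-M10.5 and 1.24 for H2-M5.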

How the data were processed

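Repli-Seq libraries of 27 early and 27 late S phase fractions were processed by the authors with Bowtie2, SAMtools and bedtools, per the submitters' processing notes, which name mm10. The authors' deposited table gives, per its headers, a log ratio (treated here as log2, its base being unstated) of early to late reads for each allele and profile in 50 kb windows; its normalization and smoothing are not given in the sources used here. No value column was left unmapped. Profiles were averaged per line or embryo, 5 ESC, 2 NPC and 4 MEF, before the fits over 43941 autosomal windows in limma 3.58.1 (R 4.3.3; lmFit and eBayes, two-sided, Benjamini-Hochberg). The fit of feeders against 2i used single profiles with line as a term. A gene's value is the mean of the windows it overlaps, and it was called where every such window was. Always named were a fixed set of genes from each part, then the largest differences per part and all called genes. The members and lists were chosen with earlier results of these data known. In data simulated from the real spread, the fits recovered 183 (ESC), 157 (MEF) and 114 (NPC) of 200 windows changed by 1 between alleles, and 186 (NPC) and 195 (MEF) of 200 changed by 2 in timing against ESCs. Same-numbered profiles were checked for pairing and did not deviate together. Alternatives were no or a doubled minimum size, median centring, quantile normalization, profiles with line as a random or the replicate number as a fixed block, 2i profiles only, embryos 1 and 3 left out, each line or embryo left out, and genes placed by their start. Not every called gene of the antigen processing list is reported here.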

Additional observations from a re-analysis of the deposited data

Results flagged for a closer look

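Among 24 groups of 4 or 5 lines or embryos screened, 3 held a value farther from its nearest neighbour than Dixon's 95% limit allows, and chance alone flags about 1 in 20 such groups. The K part of F121-6 had a timing of 1.82, with the other ESC lines between 2.85 and 3.12. The class II part of F123 had a timing of 1.88, with the other ESC lines between 2.35 and 2.53. The K part of MEF embryo 1 had an allelic difference of 0.69, with the other embryos between 0.19 and 0.22; the X tracks of this embryo go against its sex label. The allelic difference at H2-Eb1, H2-Eb2 and H2-Ea differed between MEFs and ESCs by 0.55 (limma, adjusted p = 0.0315), a call that ended in each fit without 1 embryo.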

How the results depend on the processing

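Of 712 refits of single called windows, 628 kept direction and call, 84 kept the direction and lost the call, and 0 changed direction. These refits do not include the changed minimum sizes, and most leave out only 1 line or embryo, so a reversal of a called window was unlikely from the start. The number of H2 windows called, in place of 7 (ESC alleles), 8 (MEF alleles), 1 (MEF against ESC alleles), 5 (MEF against ESC timing) and 8 (MEF against NPC timing), changed as follows. With a doubled minimum size these became 0, 2, 0, 0 and 0 in turn, and with no minimum size MEF against ESC timing had 10. Median centring gave 10 for MEF against ESC timing and 0 for MEF against NPC timing, and quantile normalization 9 and 0, with 0 for MEF against ESC alleles; the scale of the column sets enters both comparisons. Without embryos 1 and 3 the counts were 4 for MEF alleles, 0 for MEF against ESC alleles and 4 for MEF against NPC timing, with 2 embryos left. Profiles with line as a random block gave 0 for MEF against ESC alleles. Leaving out 1 line or embryo at a time gave 5 to 7 for ESC alleles, 5 to 8 for MEF alleles, 1 to 4 for NPC alleles, 0 to 2 for MEF against ESC alleles, 4 to 7 for MEF against ESC timing, 8 to 9 for NPC against ESC timing and 3 to 8 for MEF against NPC timing. Where no construction is named, the cause was not tested. Replicate numbers did not pair the samples: over 55 pairs of groups the correlation of same-numbered deviations ran from -0.40 to 0.30 for timing and from -0.07 to 0.04 for alleles. With the replicate block the counts were 5 for ESC alleles, 8 for MEF alleles, 4 for NPC alleles and 7 for MEF against NPC timing. With genes on 2 windows placed by their start alone, 3 of 18 gene values moved by more than 1 SD between ESC lines or MEF embryos, or by more than the gap between the NPC lines: H2-K1 in NPC alleles (0.46), H2-DMb2 in NPC alleles (-0.004) and in MEF timing (2.76). The files give no depth, so its effect on single values is unknown.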
